A study of Homo sapiens with 17 samples.

Results

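The genes described here are 10 chaperones, folding enzymes and stress-response factors of the endoplasmic reticulum (ER), followed through RNA-Seq and Ribo-Seq of cultured human fibroblasts. They are HSPA5, HSP90B1, CALR, CANX, PDIA4, PDIA6, DNAJB9, XBP1, HERPUD1 and SEL1L, taken by gene symbol, and all 10 were found among the 9699 genes of the deposited expression table. Ribo-Seq sequences the messenger RNA fragments that ribosomes cover, so its level follows the number of ribosomes on a coding sequence. Values were FPKM, read fragments scaled by transcript length and by library size, and translation efficiency (TE) was the log2 ratio of the Ribo-Seq FPKM to the RNA-Seq FPKM of the same condition. The cells were BJ, a foreskin fibroblast culture immortalised with hTERT, and the 17 libraries (9 RNA-Seq, 8 Ribo-Seq) covered 5 conditions. Proliferating cells were the control, and quiescent cells had been depleted of serum. Pre-senescent and senescent cells carried a tamoxifen-inducible RASG12V that had been switched on with 4-OHT-tamoxifen, for 5 days in pre-senescence and for 14 days in senescence. The labels do not say whether the proliferating and quiescent cells carried this construct. Cells labelled transformed carried, among other changes, hTERT, p16INK4A-KD, SV40 small T and retroviral pBabe-puro-RASG12V.

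The table held 1 RNA-Seq and 1 Ribo-Seq column per condition, with separate proliferating columns for each of 2 sequencing runs, 12 columns in all. Proliferation, quiescence and pre-senescence were measured in run 1, and a second proliferating culture, senescence and the cells labelled transformed in run 2. Each condition was therefore compared with the proliferating column of its own run. With 1 column per condition there was no replicate error, no test was possible and no p-value is given. A gene was called higher or lower when its ratio reached 1.5-fold, a log2 ratio of 0.585, and counts are set beside the percentage of all genes that passed the same rule. In run 2 the RNA-Seq libraries were single-end and in run 1 paired-end, so levels were not compared across runs except where stated.

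The ER folds secreted and membrane proteins. HSPA5 (BiP) is its Hsp70 chaperone and HSP90B1 (GRP94) its Hsp90, while calreticulin and calnexin hold glycoproteins by their sugar chains and protein disulfide isomerases form and rearrange disulfide bonds. When unfolded proteins accumulate, the sensors IRE1, ATF6 and PERK start the unfolded protein response: IRE1 splices XBP1 mRNA into the form that encodes the active transcription factor, ATF6 is cleaved into a factor that acts on chaperone promoters, and PERK phosphorylates eIF2alpha, which lowers translation in general. DNAJB9 (ERdj4) is a co-chaperone of HSPA5 and a target of XBP1, and HERPUD1 and SEL1L belong to the machinery that sends misfolded proteins from the ER to the proteasome.

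The promoters of these genes are shown because they hold the DNA elements through which the response is known to act. The ER stress element, ERSE, was searched as CCAAT, any 9 bases, then CCACG, and ERSE-II as ATTGG, any base, then CCACG. Both strands were searched in RefSeq windows from 250 bases before to 50 bases after each annotated start (GRCh38.p14), and all 10 genes had a window, 16 in all. In the sequences below the capitals mark the paired parts of the element, and each lies 5′ to 3′ on the strand where it matched.
HSPA5: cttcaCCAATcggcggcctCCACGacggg
HSP90B1, far copy: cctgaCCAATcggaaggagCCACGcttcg
HSP90B1, near copy: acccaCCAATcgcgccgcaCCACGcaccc
CALR: accgaCCAATgatggtcgaCCACGcgtgg
CANX: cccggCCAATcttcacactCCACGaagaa
PDIA6: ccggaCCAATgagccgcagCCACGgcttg
XBP1: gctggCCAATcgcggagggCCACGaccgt
HERPUD1, ERSE-II: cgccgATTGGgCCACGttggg

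ERSE was found in 6 of the 10 genes, and over all promoter windows it was found for 25 of 27305 gene symbols, or 0.0916%. The element lay at chr9:125241391-125241409 in HSPA5, 66 to 48 bases upstream of the start on the gene strand. HSP90B1 held 2 copies, at chr12:103930216-103930234 on the gene strand and chr12:103930321-103930339 on the opposite strand. The CALR copy, on the opposite strand, lay at chr19:12938384-12938402. The CANX copy at chr5:179698778-179698796 was in 3 of that gene's 4 windows, those of PDIA6 (chr2:10812853-10812871) and XBP1 (chr22:28800603-28800621) in 1 of 2 windows each. ERSE-II was found in HERPUD1 at chr16:56932025-56932035, 117 to 107 bases upstream, and in 19 symbols overall (0.0696%). HERPUD1 alone of the 10 also held the amino acid response core, which 4.46% of all gene symbols held. DNAJB9, PDIA4 and SEL1L held neither ERSE nor ERSE-II in these windows. The short CCACG site, which forms part of both elements, was in all 10 genes and in 42.1% of all gene symbols. The UPR element core was in none of the 10 and in 0.927% of symbols. These matches describe letters and no binding was measured.

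Some labels were at odds with the data or with each other. The Ribo-Seq column titled senescence carries a proliferation condition label and the one titled proliferation of run 2 a senescence label. The titles were used here. Over all genes, the log2 values of the Ribo-Seq column titled senescence had a Pearson r of 0.90 with senescent RNA and 0.78 with proliferating RNA of run 2. For the other column these were 0.80 and 0.88. The Ribo-Seq level of MKI67, a proliferation gene, was 1.00 FPKM in the column titled senescence, which is the table's floor, and 43.02 in the other. In the cells labelled transformed, RNA of CDKN2A, the gene of p16INK4A, was 12.64 FPKM against 6.75 in the control of run 2, with Ribo-Seq levels of 5.51 and 8.92. HRAS RNA was 312 FPKM in these cells and 1254 to 2415 in the other columns, the proliferating ones included. All 10 fibroblast markers were in the table, with summed RNA levels of 5498 to 8207 FPKM, of which VIM made up 2956 to 4881. From proliferation of run 2 to senescence VIM RNA went from 2956 to 3943 FPKM. The other fibroblast markers were lower in senescence, COL1A1 going from 1328 to 51.57 and DCN from 164 to 11.30. Of markers for other cells, 3 of 6 epithelial, 0 of 4 endothelial, 2 of 6 leukocyte and 1 of 4 muscle and nerve markers were in the table. Among these, RNA of the epithelial marker KRT18 was at 84.53 to 257 FPKM and that of the leukocyte marker CD68 at 38.32 to 132.

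The abundance of these mRNAs kept a similar order in the 6 RNA-Seq columns. CALR, the lectin chaperone calreticulin, was highest in each, at 636 to 1111 FPKM, and DNAJB9 lowest, at 4.88 to 22.62 FPKM. CANX, HSP90B1 and HSPA5 lay between 178 and 411 FPKM, PDIA6 between 164 and 252 and PDIA4 between 86.75 and 195 FPKM. XBP1 (50.35 to 89.25 FPKM), HERPUD1 (30.02 to 60.76) and SEL1L (19.69 to 28.59) followed. Without replicates, neighbours in this order could not be told apart beyond their error. In senescence HSPA5 RNA stood above both CANX and HSP90B1, and in quiescence XBP1 stood above PDIA4. The cultures were measured in bulk, so a change in the share of expressing cells and a change of RNA per cell cannot be told apart.

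TE differed widely among the 10 genes. The TE of the chaperones, disulfide isomerases, DNAJB9 and SEL1L lay between 1.16 and 2.84 in every column, and 79.0% to 99.0% of all genes had a lower TE than they did. XBP1, the transcription factor, lay between -0.28 and 0.09, below 0.22 to 0.40, the range of the all-gene medians of the 6 columns. The table lists XBP1 as a single gene and does not separate its spliced form. HERPUD1, a ubiquitin-like membrane protein of ER-associated degradation, was in between, at 0.12 to 0.83. RNA-Seq reads were counted over the whole transcript and Ribo-Seq reads over the coding sequence, so the TE of one gene against another also depends on the length and read density of its UTRs. The 10 genes together made up 0.49% to 0.70% of the summed FPKM of an RNA-Seq column and 0.88% to 1.35% of a Ribo-Seq column, the highest Ribo-Seq share being that of senescence.

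**Figure D1:**
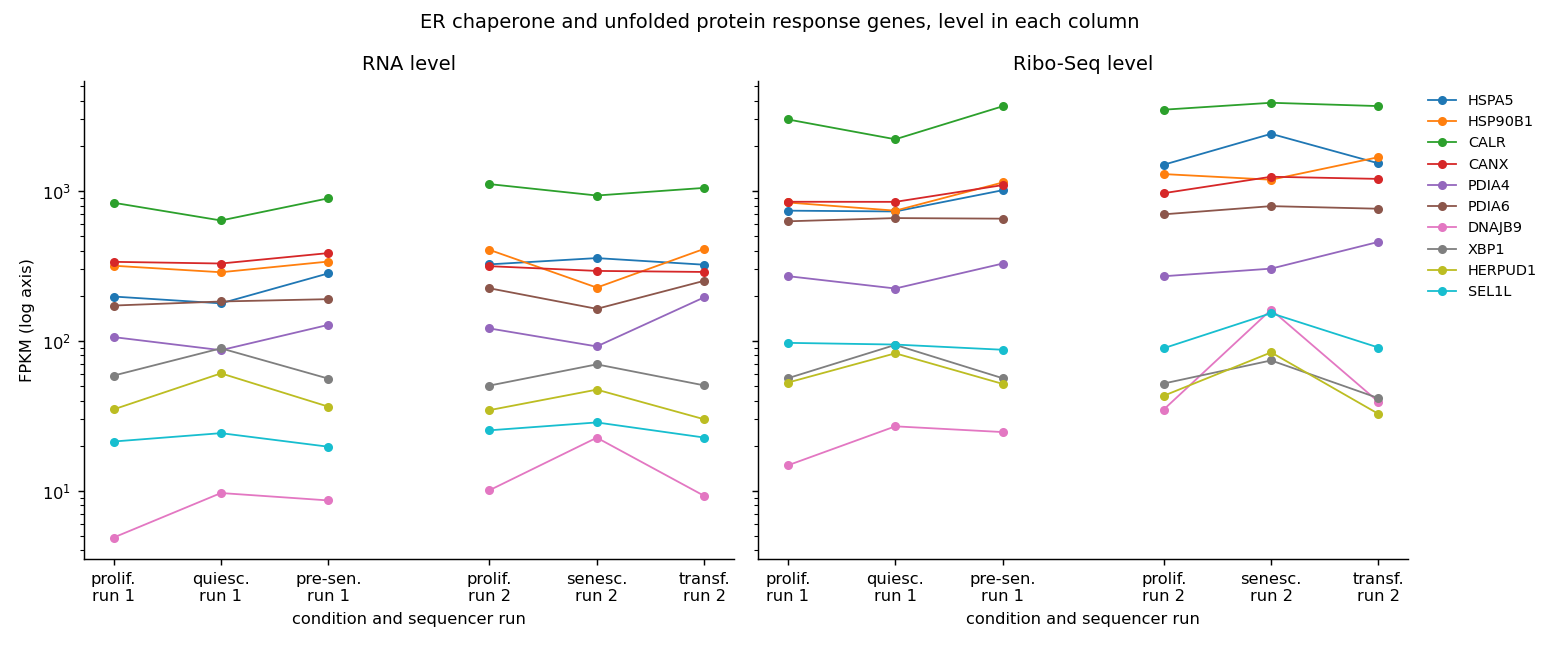
RNA level (left) and Ribo-Seq level (right) of the 10 genes in FPKM on a log axis, 1 point per column, with the columns of each sequencing run joined by lines as a guide. CALR is highest in every column, and the DNAJB9 Ribo-Seq level goes from 34.87 FPKM in proliferation of run 2 to 161.58 in senescence, above SEL1L.

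The question for quiescence was whether serum depletion changed these genes. DNAJB9, HERPUD1 and XBP1 were higher in quiescence in both RNA and Ribo-Seq, while the abundant chaperones were not. Of all genes, 11.0% were called higher and 8.96% lower in RNA, and 19.0% and 22.6% in Ribo-Seq. DNAJB9 RNA was 4.88 FPKM in proliferation and 9.67 in quiescence, and its Ribo-Seq level 14.80 and 26.93, log2 ratios of 0.99 and 0.86. HERPUD1 RNA was 34.93 and 60.76 FPKM, a log2 ratio of 0.80, with 0.65 in Ribo-Seq. XBP1 RNA was 58.70 and 89.25 FPKM, a log2 ratio of 0.60, just past the 1.5-fold line, with 0.74 in Ribo-Seq. RNA and ribosome occupancy of these 3 genes thus differed by similar ratios. The DNAJB9 difference depended on the control: against the proliferating column of run 2 its log2 ratios were -0.06 in RNA and -0.37 in Ribo-Seq.

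The remaining 7 genes stayed inside 1.5-fold in quiescence against the control of run 1. CALR had the lowest values, with log2 ratios of -0.39 in RNA and -0.44 in Ribo-Seq, and HSPA5 had -0.15 and -0.02. SEL1L, the adaptor of the ubiquitin ligase SYVN1, had 0.19 in RNA and -0.04 in Ribo-Seq. None of the 10 passed the fold in TE, where the differences ran from -0.22 (SEL1L) to 0.13 (XBP1 and HSPA5), and 11.6% of all genes were called higher and 13.9% lower. The median TE difference of the 10 genes was -0.03 and of all genes -0.06. Levels of the 7 genes depended on the control. Against that of run 2, HSPA5 (-0.86 in RNA, -1.04 in Ribo-Seq) and CALR (-0.81 and -0.66) were past the fold and lower. HSP90B1 was past it in Ribo-Seq alone (-0.81), and the rest of the 7 stayed inside.

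Pre-senescence asked the same of 5 days of RASG12V induction. DNAJB9 was the one gene of the 10 past the fold, higher in RNA (8.63 against 4.88 FPKM, log2 ratio 0.82) and in Ribo-Seq (24.66 against 14.80, log2 ratio 0.74). Among all genes 5.78% were called higher and 6.83% lower in RNA, and 16.2% and 23.3% in Ribo-Seq. Against the proliferating column of run 2 the DNAJB9 ratio turned over, to -0.23 in RNA and -0.50 in Ribo-Seq. HSPA5 came nearest to the fold among the others: its RNA was 282.17 against 197.68 FPKM and its Ribo-Seq level 1012.02 against 739.20, log2 ratios of 0.51 and 0.45. Against the proliferating column of run 2 the HSPA5 ratios also changed sign, to -0.20 in RNA and -0.565 in Ribo-Seq.

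HSP90B1 had a log2 ratio of 0.09 in RNA and 0.44 in Ribo-Seq, the widest gap between the measures among the 10 in this contrast. Its TE difference of 0.35 was inside 1.5-fold, like those of the other 9, which ran from -0.09 to 0.19. In TE 14.4% of all genes were called higher and 22.9% lower. The median of all genes was itself shifted, to -0.13 in Ribo-Seq and -0.14 in TE, while the medians of the 10 genes were 0.29 and -0.01. XBP1, HERPUD1 and SEL1L had log2 ratios between -0.15 and 0.06 in either measure, so HERPUD1 and XBP1, called higher in quiescence together with DNAJB9, were not called here.

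Senescence, after 14 days of induction, showed a different picture: TE was above that of the control for the 10 genes, though in XBP1 by only 0.04. All 10 TE differences were above 0, their median was 0.56, and 4 passed the fold, DNAJB9 (1.05), HSP90B1 (0.71), PDIA6 (0.64) and SEL1L (0.60). Among all genes, 4512 of 9497 had a TE difference above 0, the median was -0.04, and 13.8% were called higher and 17.8% lower. PDIA4 (0.57), HSPA5 (0.55) and HERPUD1 (0.51) lay just under the fold and CANX (0.47) and CALR (0.41) further below it. XBP1 stood apart at 0.04. With the proliferating column of run 1 as the control, the 10 differences ran from 0.14 (XBP1) to 1.24 (DNAJB9), and other genes passed the fold: SEL1L (0.23) and PDIA6 (0.41) no longer did, while HSPA5 (0.85) and CANX (0.76) did. Under a sliding limit set by the local SD of the log2 ratio, modelled on the study's filter for expression and TE, 0 of the 10 were called in TE. These values rest on the Ribo-Seq columns being what their titles say: with the pair exchanged as the condition labels read, the TE difference of DNAJB9 would be -3.38, that of HERPUD1 -1.42, that of XBP1 -0.98, that of SEL1L -0.95, that of HSPA5 -0.82 and that of CANX -0.26, while HSP90B1 would have 0.96 and PDIA6, PDIA4 and CALR 0.10 to 0.27.

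DNAJB9 had the largest senescence ratio of the 10 in each measure. Its RNA was 10.09 FPKM in proliferation of run 2 and 22.62 in senescence, a log2 ratio of 1.16 or 2.24-fold. Its Ribo-Seq level was 34.87 and 161.58 FPKM, a log2 ratio of 2.21 or 4.63-fold. For comparison, the proliferating columns of the 2 runs differed in DNAJB9 by log2 ratios of 1.05 in RNA and 1.24 in Ribo-Seq, so the RNA ratio of senescence was about the size of the difference between cultures of one condition and the Ribo-Seq ratio was above it. In the 6 Ribo-Seq columns the senescent value was the highest, and the next was 39.20 FPKM in the cells labelled transformed.

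HSP90B1 showed RNA and Ribo-Seq apart from each other. Its RNA was 405.06 FPKM in proliferation of run 2 and 226.81 in senescence, a log2 ratio of -0.84, and it was the one gene of the 10 called lower in RNA. Its Ribo-Seq level was 1296.70 and 1188.95 FPKM, a log2 ratio of -0.13. Among all genes 18.9% were called higher and 22.6% lower in RNA, and 21.1% and 29.5% in Ribo-Seq. Against the control of run 1 the HSP90B1 RNA ratio was -0.48, inside the fold. PDIA6 and PDIA4, disulfide isomerases, went the same way inside the fold, with log2 ratios of -0.46 and -0.40 in RNA and 0.18 and 0.17 in Ribo-Seq. CALR had -0.25 and 0.15, and CANX -0.10 and 0.36.

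HSPA5 was called higher in Ribo-Seq and not in RNA against the control of its run; against the control of run 1 its RNA log2 ratio was 0.85, past the fold. Its RNA was 324.03 FPKM in proliferation of run 2 and 356.79 in senescence, a log2 ratio of 0.14, and its Ribo-Seq level 1497.17 and 2405.84, a log2 ratio of 0.68 or 1.61-fold. The proliferating columns differed from each other by a log2 ratio of 1.02 in HSPA5 Ribo-Seq, more than the senescence ratio. SEL1L had 0.17 in RNA and 0.78 in Ribo-Seq, from 89.40 to 153.06 FPKM, and the proliferating columns differed in it by -0.12. HERPUD1 had 0.45 and 0.96, from 43.07 to 83.83 FPKM in Ribo-Seq, and the proliferating columns differed in it by -0.29. XBP1 had 0.47 and 0.51 and was not called. The median of all genes was shifted to -0.12 in Ribo-Seq, and that of the 10 genes was 0.44.

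**Figure D2:**
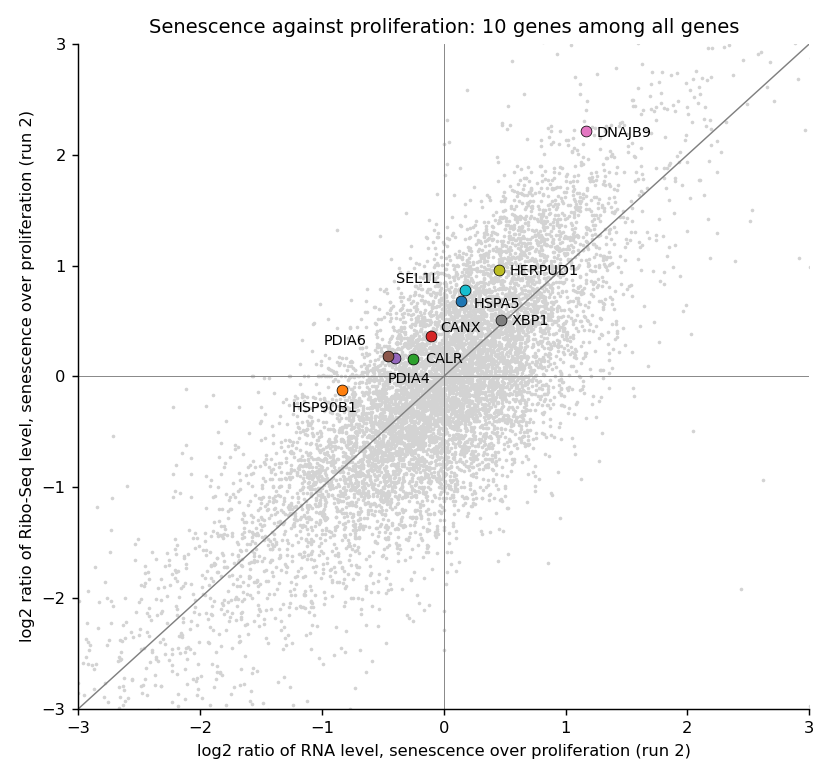
Log2 ratio of senescence over proliferation of run 2 in RNA level (horizontal axis) and Ribo-Seq level (vertical axis), with all genes in grey, the 10 genes in colour and the line of equal ratios; genes beyond 3 on either axis are not drawn. All 10 lie above the line, XBP1 by 0.04 and DNAJB9 by 1.05.

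The cells labelled transformed differed from their control in several engineered changes at once, and their HRAS level was the lowest of the columns, as given above. PDIA4, a disulfide isomerase with several thioredoxin-type domains, was the one gene of the 10 past the fold against the control of run 2. Its RNA was 121.16 FPKM in proliferation of run 2 and 195.25 in the cells labelled transformed, a log2 ratio of 0.69, and its Ribo-Seq level 269.99 and 457.61, a log2 ratio of 0.76. Among all genes 13.2% were called higher and 11.6% lower in RNA, and 13.6% and 15.8% in Ribo-Seq. The transformed value of PDIA4 was the highest of its 6 columns in each measure, and the ratios against the control of run 1 were 0.88 and 0.76. The other 9 genes had RNA log2 ratios from -0.20 to 0.17 and Ribo-Seq log2 ratios from -0.40 to 0.37. HSPA5 was at -0.01 and 0.03. Against the control of run 1, HSPA5 (0.71 in RNA, 1.05 in Ribo-Seq) and DNAJB9 (0.92 and 1.41) also passed the fold. In Ribo-Seq alone HSP90B1 (1.00) and HERPUD1 (-0.70) did so too.

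No TE difference of the 10 passed the fold in the cells labelled transformed, and they ran from -0.33 (XBP1) to 0.44 (CANX). In TE 5.00% of all genes were called higher and 10.6% lower. DNAJB9, called higher in senescence, had log2 ratios of -0.12 in RNA and 0.17 in Ribo-Seq here. Against the control of run 1 the TE differences of CANX (0.73) and HSP90B1 (0.63) passed the fold.

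Senescent cells and those labelled transformed were compared directly, since both belonged to run 2 and both are labelled as carrying RASG12V. DNAJB9 and HERPUD1 were higher in senescent RNA, with log2 ratios of 1.29 and 0.66, and PDIA4 (-1.09), HSP90B1 (-0.86) and PDIA6 (-0.62) were lower. Among all genes 18.5% were called higher and 27.0% lower. In Ribo-Seq DNAJB9 (2.04), HERPUD1 (1.36), XBP1 (0.84), SEL1L (0.76) and HSPA5 (0.65) were higher in senescence and PDIA4 (-0.59) lower, beside 23.0% and 30.2% of all genes. XBP1 was 74.10 FPKM in senescent and 41.50 in the Ribo-Seq of the cells labelled transformed. In TE, DNAJB9 (0.75), HERPUD1 (0.71) and PDIA6 (0.68) passed the fold, beside 14.1% of all genes higher and 11.6% lower. The TE differences of the other 7 lay between 0.02 (CANX) and 0.51 (HSPA5). This contrast shares the senescent column with the one above and is no separate evidence for it.

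The 2 proliferating columns gave the size of a difference between cultures of one condition, where run and culture cannot be told apart. Run 2 was higher in HSPA5 (log2 ratios of 0.71 in RNA and 1.02 in Ribo-Seq), in DNAJB9 (1.05 and 1.24) and, in Ribo-Seq, in HSP90B1 (0.63). Among all genes 12.2% were called higher and 14.3% lower in RNA, and 21.3% and 20.7% in Ribo-Seq. HSPA5 RNA was 197.68 FPKM in run 1 and 324.03 in run 2, and its Ribo-Seq level 739.20 and 1497.17. In TE none of the 10 passed the fold, with differences from -0.37 (SEL1L) to 0.31 (HSPA5), beside 16.0% of all genes higher and 11.9% lower. In size, each of these TE differences was smaller than 9 of the 10 TE differences of senescence from the run 2 control, XBP1 being the exception. The proliferating column of run 2 enters both sides of this comparison. With the control of run 1, the senescence differences of CALR (0.21), HERPUD1 (0.23), SEL1L (0.23) and XBP1 (0.14) were smaller than 0.37. Those of the other genes were larger.

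**Figure D3:**
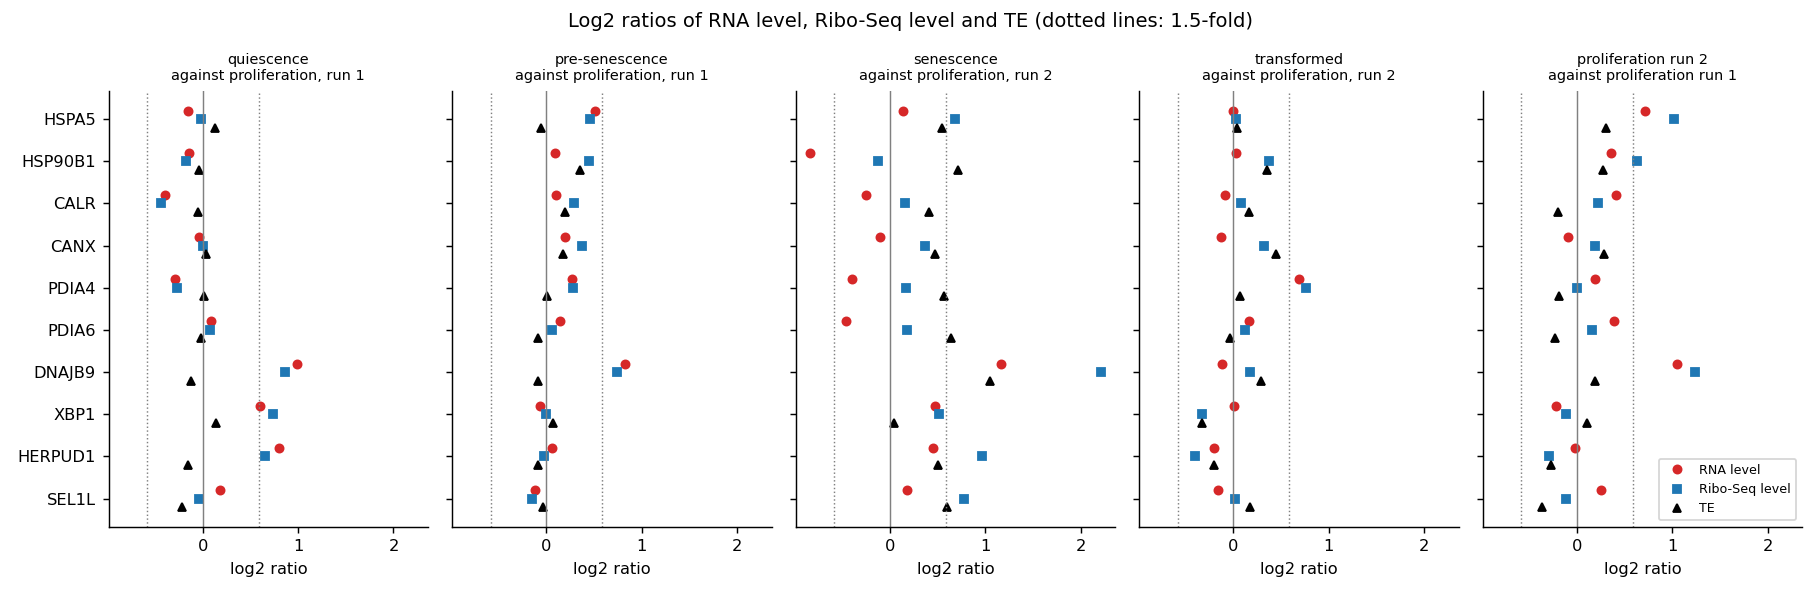
Log2 ratios of RNA level, Ribo-Seq level and TE for the 10 genes in each condition against the proliferating column of its run, with the proliferating columns against each other at the right; dotted lines mark 1.5-fold. In senescence the black TE triangles of all 10 genes lie to the right of 0, and DNAJB9 reaches 2.21 in Ribo-Seq.

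A wider list of 68 symbols of the response was followed beside the 10 genes, of which 64 were in the table. In senescence 25 of the 64 were called higher in TE and 3 lower, with a median of 0.52. In RNA the counts were 22 higher and 5 lower and in Ribo-Seq 34 and 2. In quiescence the TE counts were 1 and 3, in pre-senescence 7 and 3 and, among the 63 that could be compared, 2 and 2 in the cells labelled transformed. In RNA they were 8 and 1, 8 and 2, and 7 and 8. For these counts, at 1.5-fold and with the control of the same run, the percentages of all genes are those given above for each contrast. For senescence the TE counts were 22 and 7 with the control of run 1, 5 and 2 at 2-fold, and 2 and 1 under the sliding limit. With the conflicting Ribo-Seq columns exchanged they were 6 and 41. Over the contrasts and measures that each setting covers, 23.4% to 63.1% of all genes passed in either direction with the control of the other run. At 2-fold it was 3.32% to 30.4%, under the sliding limit 6.13% to 8.74% and with the exchange 28.8% to 68.2%. The share for senescence TE alone is not given for these settings. Under the sliding limit the called share of the list was below 6.13%, the lowest share of all genes. Counts of the list run over single columns, and members of the list are not replicates.

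By role, the senescence TE differences had medians of 0.58 in 11 sensors and transcription factors, 0.46 in 10 co-factors of HSPA5 and HSP90B1, 0.54 in 16 oxidoreductases and prolyl isomerases, 0.57 in 6 genes of the lectin cycle and 0.53 in 17 of ER-associated degradation. The 4 genes of PERK feedback had a median of -0.41 but did not move together. PPP1R15A (0.19) and PPP1R15B (0.38) were above 0, TRIB3 (-1.01) and CHAC1 (-1.24) below. DNAJC10, a reductase with a J domain, had the highest TE difference at 1.22. Next came CLGN (1.11) and SEC63 (1.09), a J-domain protein of the translocon. CLGN is a calnexin relative whose RNA was 1.00 to 3.10 FPKM and at the floor in the control. Its difference was 0.08 against the control of run 1, where DNAJC10 had 1.07 and SEC63 1.02. CHAC1 (-1.24) and TRIB3 (-1.01), which are induced through ATF4, and CEBPB (-0.91), a transcription factor, were lowest. In senescent RNA, DDIT3 (CHOP), the transcription factor downstream of PERK, had the highest ratio of the list at 1.60, ahead of FKBP14 (1.32) and MOGS (1.31), and FKBP10 (-1.26), FKBP9 (-1.25) and CREB3L2 (-1.12) the lowest. Against the control of run 1 FKBP9 was at 0.16, FKBP10 at -0.39 and CREB3L2 at -0.99. DDIT3, FKBP14 and MOGS stayed past the fold. DDIT3 RNA was 12.34 FPKM in proliferation of run 2 and 37.50 in senescence, and its Ribo-Seq level 4.02 and 9.31. ATF6, the membrane-bound sensor, was 43.96 and 142.52 FPKM in Ribo-Seq and 16.90 and 29.34 in RNA.

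The same list was led by other genes elsewhere. In quiescent RNA, CHAC1 (1.37), CEBPB (0.91) and EIF2AK3 (0.84), which encodes PERK, were highest and SDF2L1 (-0.63), DNAJB11 (-0.51) and HYOU1 (-0.49), co-factors of HSPA5, lowest. In quiescent TE, SYVN1 (0.83), CREB3L1 (0.58) and EDEM3 (0.51) were highest and ATF4 (-1.12), DDIT3 (-0.96) and TMX1 (-0.68) lowest. Against the control of run 2 the ATF4 difference was 0.52 and that of EDEM3 -0.39. The proliferating columns themselves differed by -1.64 in ATF4 and by 0.90 in EDEM3. ATF4 and DDIT3 carry upstream reading frames that hold ribosomes off the coding sequence. In pre-senescent RNA, CLGN (0.98), PPP1R15A (0.81) and MANF (0.73) were highest and CREB3L1 (-1.43), FKBP9 (-0.69) and CREB3L2 (-0.47) lowest. In pre-senescent TE, PPP1R15A (1.10), the phosphatase subunit that reverses PERK signalling, EIF2AK3 (1.08) and EDEM3 (0.93) were highest and SDF2L1 (-0.98), TMX1 (-0.74) and MBTPS2 (-0.70) lowest. Against the control of run 2 SDF2L1 was at 0.12, the proliferating columns differing by -1.11.

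In the cells labelled transformed, CHAC1 (1.77), ERN1 (1.52), which encodes IRE1, and CEBPB (1.20) were highest in RNA and FKBP7 (-1.53), FKBP9 (-1.05) and CREB3L1 (-1.03) lowest. FKBP9 was at 0.36 against the control of run 1. Over the 4 conditions, 41 of the 48 ratios named for the wider list against a proliferating column were past the fold, and with the control of the other run 4 of these reversed and 14 more fell inside it. In TE of the cells labelled transformed, DDIT3 (0.90), PPP1R15A (0.69) and ATF4 (0.54) were highest and CHAC1 (-0.76), CEBPB (-0.75) and MOGS (-0.52) lowest. Against the control of run 1 the highest became 0.29 (DDIT3), 0.20 (PPP1R15A) and -1.09 (ATF4). The lowest became -0.52 (CHAC1), -0.54 (CEBPB) and -0.37 (MOGS). Against the cells labelled transformed, senescent RNA was highest in FKBP14 (1.90), EDEM2 (1.45) and FKBP7 (1.34) and lowest in CREB3L2 (-1.17), FKBP10 (-0.86) and GANAB (-0.86). Senescent TE was highest in CLGN (2.20, listed at the floor of 1.00 FPKM in both kinds in the cells labelled transformed, so this value depends on the floor), SYVN1 (1.07) and ERLEC1 (1.05) and lowest in DDIT3 (-1.29), TRIB3 (-0.65) and PPP1R15A (-0.51).

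**Figure D4:**
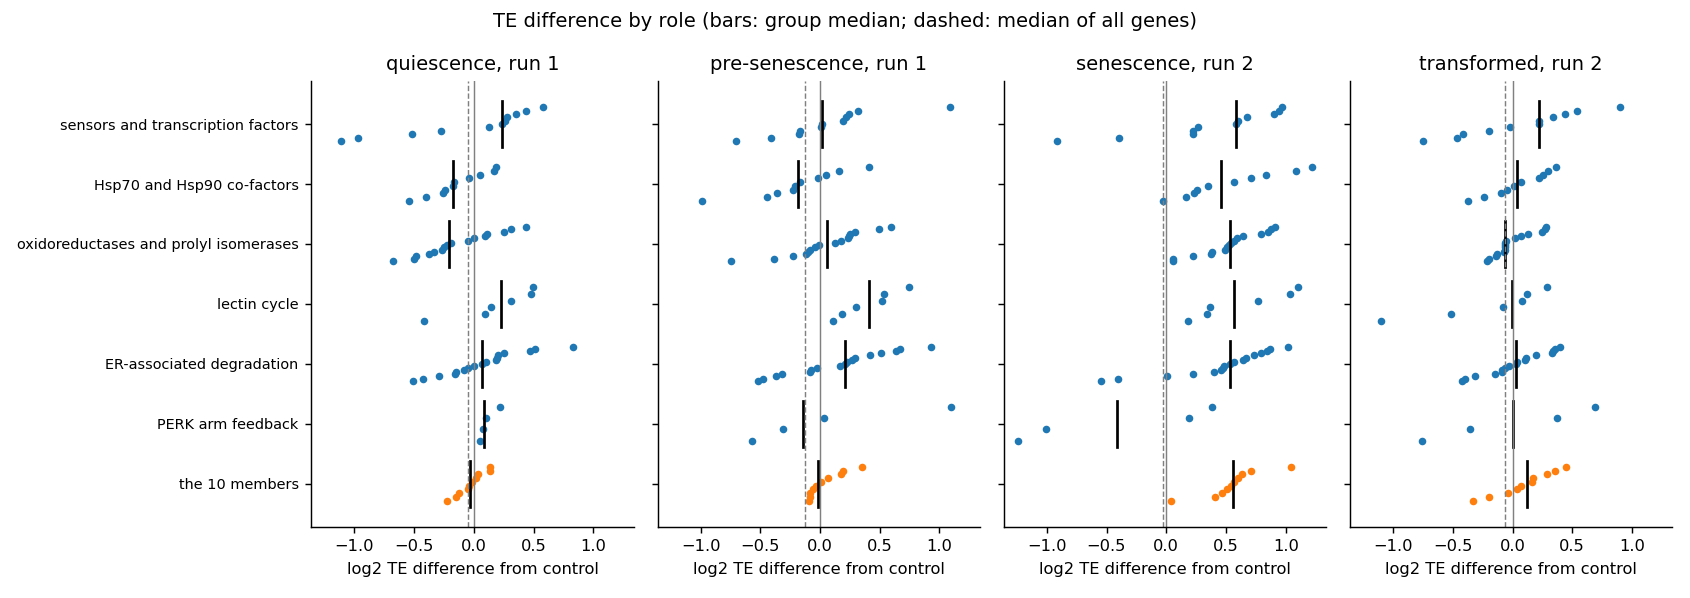
TE difference on the log2 scale from the proliferating column of the same run for the wider list by role and for the 10 genes, 1 point per gene, with bars at group medians, a solid line at 0 and a dashed line at the median of all genes. In senescence 5 of the 6 roles have medians of 0.46 to 0.58 and the 10 genes 0.56. PERK feedback is at -0.41, with PPP1R15A and PPP1R15B above 0 and TRIB3 and CHAC1 below.

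The genes whose pattern was most like that of HSPA5 were looked for over the 12 log2 columns, 6 of RNA and 6 of Ribo-Seq, among 5244 genes with a mean of at least 10 FPKM in each kind. DNAJC3, a co-chaperone of HSPA5, and TFRC, the transferrin receptor, had the highest Pearson r, 0.99 each, followed by SPCS2, SPCS3 (subunits of the signal peptidase) and DYNC1I2 (a dynein chain), 0.98 each. Among the 10, CALR had 0.96 with HSPA5, DNAJB9 0.90, HERPUD1 0.37 and XBP1 -0.17, while XBP1 and HERPUD1 had 0.82 with each other. The 12 points share the step between RNA and Ribo-Seq, which every gene of high TE has, so r here follows the TE of a gene as well as its response to the conditions.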

How the data were processed

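RNA-Seq of poly(A) RNA and Ribo-Seq of monosome fractions from cycloheximide-treated, RNase I-digested BJ lysates were processed by the authors: reads were aligned with Bowtie to hg19 (per the labels) and to Ensembl release 65 transcripts, with 1 isoform per gene. The deposited values are FPKM, which the authors floored at 1; a transcript needed 40 reads in both kinds in at least one condition. Of the 12 columns, 5 cover more than 1 library, and how these were combined is not given in the sources used here; these are the authors' values. The table holds no counts, so the number of reads behind each value cannot be read from it and no interval was computed; library read totals that the study lists are not used here.

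Log2 ratios and TE were computed without a pseudocount in Python 3.11.15 (numpy 2.4.6, pandas 2.3.3, matplotlib 3.10.9), after keeping genes above 1 FPKM in at least one of the columns of each kind compared. No test was run. A further check of the labels is not reported here. The scripts were tested on simulated tables. The 10 genes and the lists were chosen with earlier results of these data known. Of the wider list, the 3 highest and 3 lowest ratios in RNA and TE per contrast were named, and the 5 genes most like HSPA5; DDIT3 and ATF6 levels were added after their values were seen. Alternatives were a pseudocount, median-centred columns, the control of the other run, other fold rules and filters, and the exchange of the conflicting Ribo-Seq columns; those for the wider list were chosen after seeing the data. Promoter sequences came from RefSeq (GRCh38.p14), a different build from the alignment; no sequence read was used.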

Additional observations from a re-analysis of the deposited data

How the results depend on the processing

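The counts of the 10 genes past the fold were within 1.5 times the reported ones in all contrasts and measures with a pseudocount of 1, with columns centred on their medians, with no filter on low values and with a mean of at least 10 FPKM. With the control of the other run, DNAJB9 was reversed in quiescence (-0.0613 in RNA, -0.37 in Ribo-Seq) and pre-senescence (-0.23 and -0.50). The counts then were 5 for quiescent Ribo-Seq, 0 for pre-senescent RNA and 0 for Ribo-Seq, and in cells labelled transformed 3 in RNA, 5 in Ribo-Seq and 2 in TE. Of all genes, 23.4% to 63.1% passed the fold over the contrasts and measures under that control, beside 12.6% to 53.1% as reported. At 2-fold (3.32% to 30.4% of all genes) the counts were 0 in RNA and 0 in Ribo-Seq for quiescence, pre-senescence and cells labelled transformed alike, 1 in each measure for senescence, 2, 2 and 0 (RNA, Ribo-Seq, TE) for senescence against transformed, and 1 in RNA between the proliferating columns. A sliding limit was set by the local SD of the log2 ratio along the level. It was modelled on the study's filter for expression and TE and was applied here to Ribo-Seq levels as well. Under it 6.13% to 8.74% of all genes passed, and the count of the 10 genes was 0 in place of 4 in senescence TE. It was 1 in quiescent RNA, 1 in senescent Ribo-Seq against proliferation and 1 against the cells labelled transformed, and 0 in every other contrast and measure. With the Ribo-Seq columns of senescence and proliferation of run 2 exchanged (28.8% to 68.2% of all genes past the fold), the senescence Ribo-Seq ratios became -0.68 (HSPA5), -2.21 (DNAJB9), -0.96 (HERPUD1) and -0.78 (SEL1L), and the TE differences -3.38 (DNAJB9) and -0.95 (SEL1L). Against cells labelled transformed they became -0.0299 (HSPA5), -0.17 (DNAJB9) and -0.0145 (SEL1L) in Ribo-Seq and -1.46 (DNAJB9) and -0.25 (HERPUD1) in TE. The counts under the exchange were 6 in Ribo-Seq and 5 in TE for cells labelled transformed, 1 and 1 for senescence against transformed and 5 in TE between the proliferating columns. For the wider list in senescence, alternatives chosen after seeing the data gave these counts higher and lower: at 2-fold 7 and 3 in RNA, 23 and 0 in Ribo-Seq and 5 and 2 in TE; under the sliding limit 2 and 0, 3 and 0, and 2 and 1; with the control of run 1, 36 and 6 in Ribo-Seq and 22 and 7 in TE; with the exchange, 2 and 34 in Ribo-Seq and 6 and 41 in TE. With the control of the other run ATF4 TE in quiescence was 0.52, SDF2L1 TE in pre-senescence 0.12, and FKBP9 RNA 0.16 in senescence and 0.36 in the cells labelled transformed, all reversed. The cause of these changes was not tested. No paired analysis was possible because each condition has 1 column of each kind, and for the same reason no replicate could be left out.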

Other observations

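Chaperones of the cytosol and mitochondria, 16 genes chosen after the values of the ER genes had been seen, gave a comparison outside the report. In senescence their TE differences had a median of -0.02, with 8 of 16 above 0, a range of -0.67 to 0.48, none called higher and 1, HSPE1, the mitochondrial co-chaperonin, called lower, beside 13.8% and 17.8% of all genes. The 10 ER genes had a median of 0.56 in the same columns. HSPE1 TE was 2.98 in proliferation of run 2, 1.38 in that of run 1 and 2.30 in senescence, so its lower call depended on the control. In the cells labelled transformed, all 16 had RNA log2 ratios above 0, with a median of 0.45 and 4 called higher (13.2% of all genes), where the 10 ER genes had a median of -0.05. Senescence against the cells labelled transformed gave medians of -0.44 in RNA and -0.57 in Ribo-Seq for the 16, with 6 and 8 called lower, beside 27.0% and 30.2% of all genes. The proliferating columns differed in the 16 as well, with a median of -0.60 in RNA and 8 called lower in run 2, beside 14.3% of all genes. No test was possible on any of these values.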
